A study of Mus musculus with 6 samples.

Results

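The methionine cycle and the transsulfuration pathway were examined through 9 enzyme genes in liver RNA-seq: Mat1a, Mat2a, Gnmt, Ahcy, Bhmt, Bhmt2, Pemt, Cbs and Cth. The genes were chosen by symbol, as the enzymes that make, spend and remake methionine and carry its sulfur to cysteine, from the 45777 genes of the deposited table. Every one of the 9 passed the filter on low counts, which kept 17274 genes. The series holds 6 livers of male C57BL/6 mice fed a high-fat diet (HFD), with 1 library per mouse and 3 mice per group, and asks how loss of hepatocyte ferroportin alters the liver transcriptome. LT denotes littermates with the Fpn flox/flox genotype and no Cre. Fpn-LKO denotes mice labelled Alb-Cre; Fpn flox/flox, in which Cre under the albumin promoter is meant to delete the iron exporter ferroportin in hepatocytes, while other liver cells keep it. The floxed allele came from a 129S stock, and the crossed line was then backcrossed to C57BL/6J, according to the methods. Both groups therefore carry the floxed allele, and Cre is carried by the Fpn-LKO mice alone, so that an effect of Cre and one of the deletion cannot be told apart. The labels give neither the mice's age nor the time on the diet.

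Total counts lay between 43086184 and 47778683 per library. All 6 libraries carry the same batch label, and the 6 pairs of libraries within a group differed by more than sampling noise. Slc40a1, which encodes ferroportin, had 154, 180 and 126 CPM (counts scaled to a common library size) in LT replicates 1 to 3. It had 143, 143 and 176 CPM in livers labelled Fpn-LKO, which is a log2 fold change of 0.0073 (95% confidence interval -0.37 to 0.38). The targeted transcript was thus not lower in those livers, and every direction below rests on the labels. A count over the whole gene does not show whether the floxed exons were transcribed. The paper reports the deletion in hepatocytes from its own checks by other assays, which were not analysed here. Alb, the hepatocyte marker albumin, lay between 38068 and 48160 CPM in every library, and 5 of 7 exocrine pancreas markers had 0 reads in all 6. Summed CPM of each marker list (hepatocyte, its pericentral and periportal kinds, Kupffer, stellate and endothelial, bile duct, red cell, pancreas) overlapped between groups. For 5 RNAs without a poly(A) tail, LT replicates 1 to 3 summed to 73204, 77913 and 92030 CPM. Fpn-LKO replicate 1 lay above every LT liver, with 100406 CPM. Fpn-LKO replicates 2 and 3 lay below every LT liver, with 32629 and 46239 CPM. These RNAs made up 3.29% to 10.2% of the counts of a library. Whether their spread within the Fpn-LKO group bears on the values of other genes was not tested. The samples were whole liver, so fewer cells of a type and less RNA per cell cannot be told apart.

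The methionine cycle turns methionine into S-adenosylmethionine (SAM), the methyl donor of most methylation reactions, and then into S-adenosylhomocysteine and homocysteine. Homocysteine is either methylated back to methionine or condensed with serine and passed through transsulfuration to cysteine, the precursor of glutathione and taurine. Liver holds most of the body's capacity for both routes, and hepatocytes express MAT1A where most other cells rely on MAT2A.

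No enzyme gene passed the threshold for a difference between the genotypes. With edgeR's quasi-likelihood fit and p-values adjusted over all genes by Benjamini-Hochberg, 0 of the 9 had an adjusted p under 0.05 (range 0.982 to 0.995), where 0.0232% of all genes tested did. At an unadjusted p under 0.05 there was 1 of 9, Mat2a, against 4.8% of all genes. In 2 of 9, Mat2a and Ahcy, the CPM of the groups did not overlap, both higher in livers labelled Fpn-LKO, where 10.6% of all genes did not overlap and 5.25% did so in that direction. Log2 fold changes were positive for 8 of 9 genes, against 49.4% of all genes, with a median of 0.22 over the 9 and -0.0040 over all genes. Several of the 9 moved together from liver to liver, so these signs are not independent. Those of Mat1a, Pemt and Bhmt2 each changed with 1 LT mouse left out. The median was the value of Ahcy, which was 0.028 with the reads of near-identical copies added, an alternative chosen after seeing the data. The 95% confidence intervals were 0.594 to 1.51 log2 units wide, so that changes of the size seen for single genes could not be resolved with 3 mice per group.

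**Figure D1:**
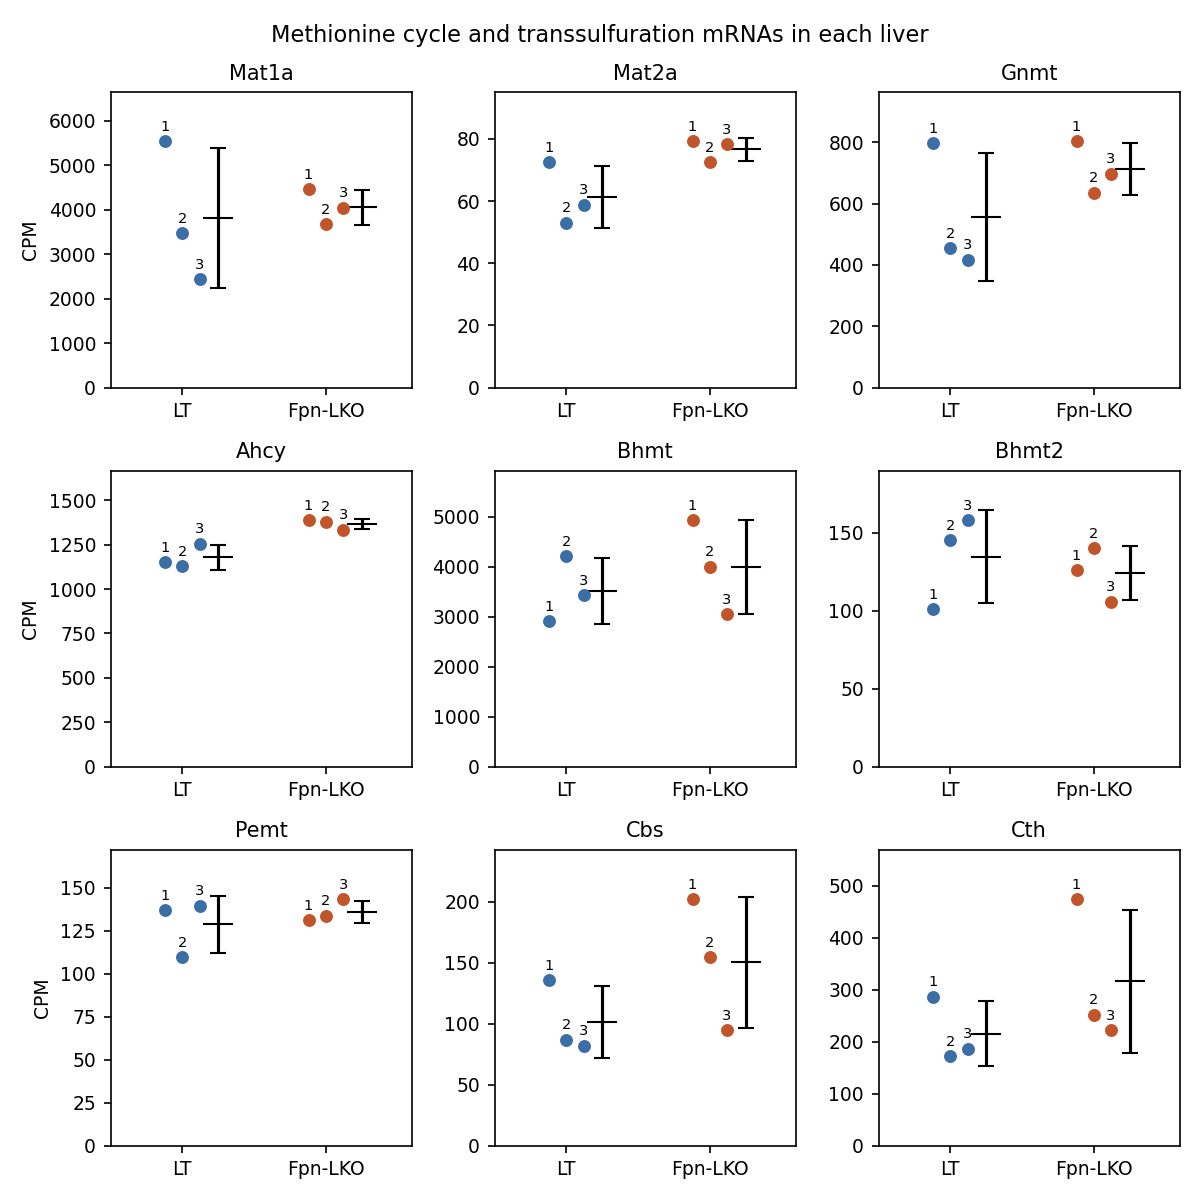
CPM of each enzyme gene in each liver, 1 panel per gene, on a vertical axis from 0. Points are libraries numbered by replicate and bars are the mean and SD of 3 mice. Mat2a and Ahcy are the 2 panels in which no LT point reaches the lowest Fpn-LKO point, and LT replicate 1 is the highest LT point for Mat1a, Mat2a, Gnmt, Cbs and Cth.

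**Figure D2:**
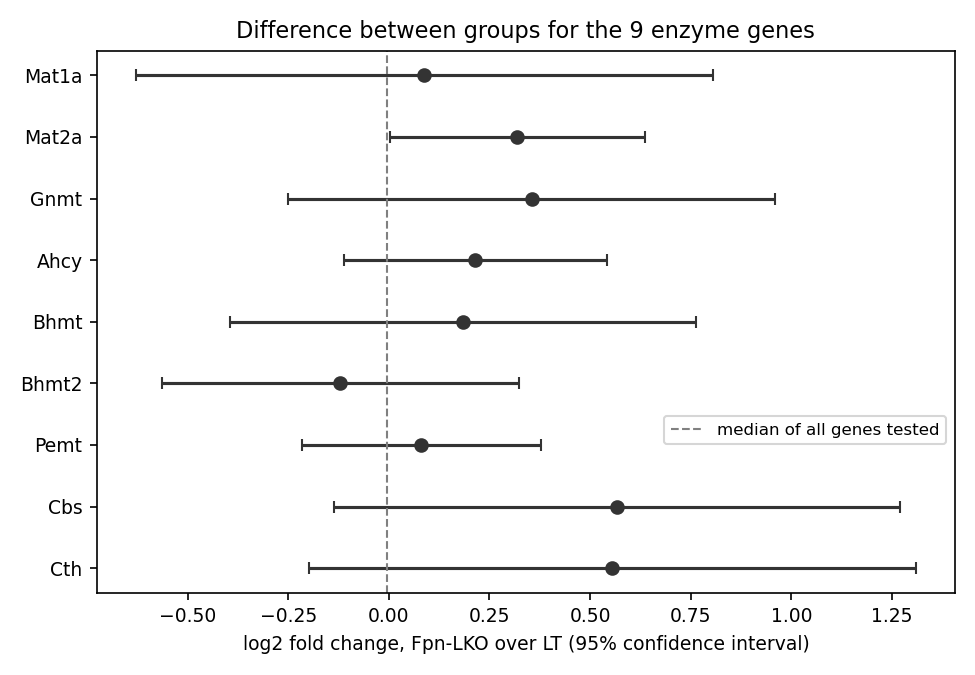
Log2 fold change of each enzyme gene, libraries labelled Fpn-LKO over LT, with its 95% confidence interval from edgeR's quasi-likelihood fit. The dashed line is the median of the 17274 genes tested. Every interval but that of Mat2a, which starts at 0.0019, contains 0.

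The levels of the genes can be compared with each other only per transcript length, in TPM (counts scaled to transcript length and to a fixed total). Bhmt was the most abundant, with a median of 2259 TPM over the 6 libraries (1899 to 2945), followed by Mat1a with 1593 TPM (827 to 2281), Gnmt with 910 TPM (466 to 1089) and Ahcy with 655 TPM (555 to 812). Cth had a median of 186 TPM (119 to 326), Pemt 175 TPM (137 to 200), Bhmt2 80.8 TPM (66.9 to 100.4), Cbs 62.6 TPM (37.2 to 99.3) and Mat2a 33.4 TPM (22.5 to 36.5). The order held in all 6 libraries between Mat1a and Gnmt, Ahcy and Cth, Pemt and Bhmt2, and Cbs and Mat2a. It did not hold throughout for the other neighbours. Bhmt exceeded Mat1a in 5 of 6 libraries, Gnmt exceeded Ahcy in 4, Bhmt2 exceeded Cbs in 4, and Cth exceeded Pemt in 3.

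**Figure D3:**
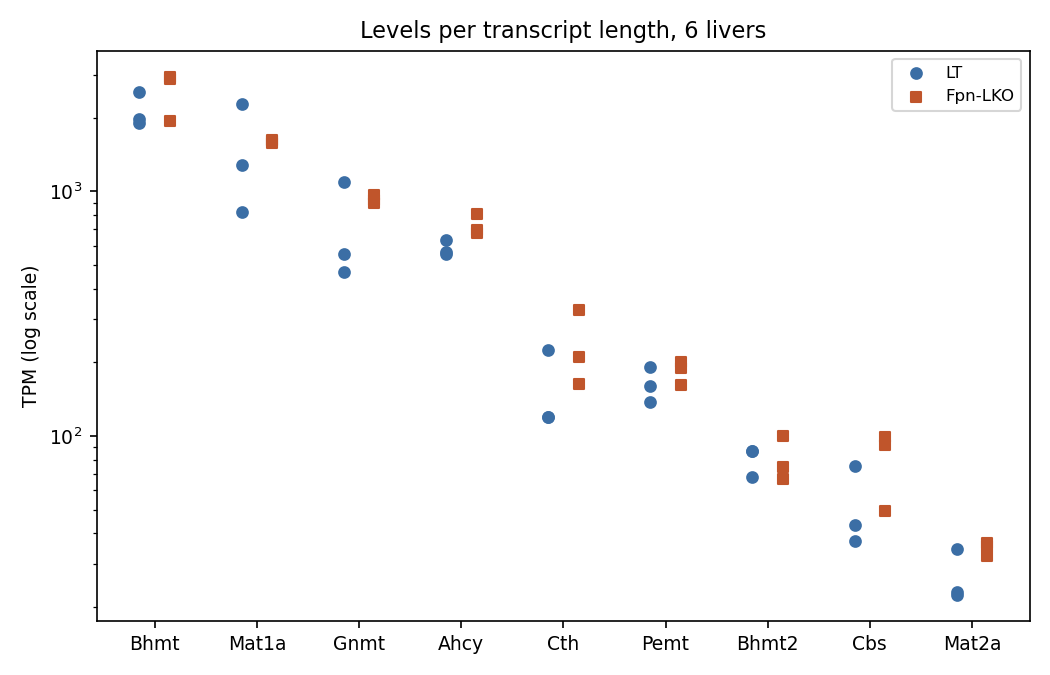
TPM of each enzyme gene in the 6 livers on a log scale, ordered by the median, with circles for LT and squares for Fpn-LKO. Levels span from a median of 2259 TPM for Bhmt to 33.4 TPM for Mat2a, and the points of Cth and Pemt overlap.

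SAM is made by methionine adenosyltransferase, whose catalytic subunit comes from Mat1a in adult hepatocytes and from Mat2a elsewhere. Mat1a (chromosome 14, 41105012 to 41124428 of GRCm38) had 5544, 3477 and 2442 CPM in LT livers and 4461, 3675 and 4051 CPM in livers labelled Fpn-LKO. The LT livers enclosed all 3 Fpn-LKO livers, with LT replicates 1 and 3 at the extremes. The log2 fold change was 0.088 (95% confidence interval -0.63 to 0.80), and with LT replicate 1 or LT replicate 3 left out it was 0.46 or -0.15. With between 101055 and 275987 reads per library, the width of the interval came from the spread between libraries and not from counting. With 1 library per mouse, differences between mice and between preparations cannot be told apart.

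Mat2a (chromosome 6, 72432796 to 72439556) had 72.5, 53.1 and 58.8 CPM in LT livers and 79.2, 72.5 and 78.2 CPM in livers labelled Fpn-LKO. The groups did not overlap, but LT replicate 1 and Fpn-LKO replicate 2 had the same value to 3 digits. On the TPM scale the groups overlapped, with LT replicate 1 at 34.6 TPM above Fpn-LKO replicate 1 at 32.2 TPM. Means were 61.4 ± 9.98 and 76.7 ± 3.61 CPM (SD, n = 3 each), which is a log2 fold change of 0.32 (SE 0.14, 95% confidence interval 0.0019 to 0.64). The unadjusted p was 0.0489 with edgeR's quasi-likelihood fit, and the adjusted p 0.982. An exact two-sided permutation test of the 6 values gave p = 0.1, the smallest that 3 mice against 3 allow. Without LT replicate 1 the log2 fold change was 0.46 and the unadjusted p 0.00779 with the same edgeR fit. With any 1 of the other 5 mice left out, the unadjusted p was above 0.05, between 0.0678 and 0.152. Mat2b, which encodes the regulatory partner of MAT2A, had 32.0, 31.3 and 33.0 CPM in LT livers and 36.0, 32.7 and 33.6 CPM in livers labelled Fpn-LKO, with overlapping groups.

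Within a library, the Mat2a transcript amounted to 1.52%, 1.75% and 2.80% of the Mat1a transcript in LT (TPM ratio) and to 1.99%, 2.26% and 2.26% in livers labelled Fpn-LKO. The LT values lay on both sides of the Fpn-LKO values. The difference of the mean log2 ratio was 0.15 (exact two-sided permutation test, p = 0.6, adjusted over 2 ratios p = 0.6), and it was -0.031 without LT replicate 1. In the reference, the transcripts of these paralogs align at 74.4% identity over 1146 bases.

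The 250 bases before the Mat2a start in RefSeq (chr6:72439557-72439806, minus strand, GRCm38.p6) are given because Mat2a was the enzyme with the smallest p. The corresponding window of Cbs (chr17:31637206-31637455, minus strand) is given because its fold change was the largest of the 9. The start used for Cbs lies inside the annotated gene, which reaches 31637233, so the window and the gene overlap. Capitals mark matches on either strand to the TATA box (TATAAA), the GC box (GGGCGG) and the CCAAT box (CCAAT).
Mat2a: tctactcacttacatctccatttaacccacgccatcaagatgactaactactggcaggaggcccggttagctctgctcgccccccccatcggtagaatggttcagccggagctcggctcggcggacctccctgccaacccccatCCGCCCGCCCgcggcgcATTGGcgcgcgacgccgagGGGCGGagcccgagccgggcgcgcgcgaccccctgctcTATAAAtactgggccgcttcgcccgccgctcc
Cbs: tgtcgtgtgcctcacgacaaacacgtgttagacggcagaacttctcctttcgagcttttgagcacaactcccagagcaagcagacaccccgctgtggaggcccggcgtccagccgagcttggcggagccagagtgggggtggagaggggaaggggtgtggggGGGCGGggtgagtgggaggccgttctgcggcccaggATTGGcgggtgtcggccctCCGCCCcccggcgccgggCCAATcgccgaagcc
The Mat2a window holds 1 TATAAA, from 32 to 27 bases before the start, 3 GGGCGG, of which 2 overlap, and 1 CCAAT. That of Cbs holds 2 GGGCGG and 2 CCAAT and no TATAAA. Among 32851 RefSeq windows of the same length, 12.4% hold TATAAA, 32.7% hold GGGCGG and 33.8% hold CCAAT. The motif TGATGNAA, bound by ATF4 dimers, is present in 3.45% of all windows and in none of the 7 enzyme genes with an entry. Mat1a and Cth had no entry.

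SAM is spent by methyltransferases. Glycine N-methyltransferase, the product of Gnmt, is the main consumer of surplus SAM in liver, and PEMT uses SAM to make phosphatidylcholine. Gnmt (chromosome 17, 46725664 to 46729211) had 797, 455 and 418 CPM in LT livers and 803, 636 and 697 CPM in livers labelled Fpn-LKO. LT replicate 1 stood with the Fpn-LKO livers, and the other 2 LT livers below them. The log2 fold change was 0.36 (95% confidence interval -0.25 to 0.96, unadjusted p = 0.210 with edgeR's quasi-likelihood fit). Without LT replicate 1 it was 0.71, with an unadjusted p of 0.00480 and an adjusted p of 0.982 (the same edgeR fit), and without LT replicate 3 it was 0.19. Pemt (chromosome 11, 59970614 to 60046561) had 137, 110 and 140 CPM in LT livers and 131, 134 and 143 CPM in livers labelled Fpn-LKO. The groups overlapped, and the interval of the log2 fold change, -0.22 to 0.38, was the narrowest of the 9. Gamt, which makes creatine from SAM and guanidinoacetate, had 95.5, 99.6 and 111 CPM in LT against 92.5, 101 and 86.7 CPM.

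Among 14 related genes of SAM use and handling, 1 passed the threshold over all genes, which 0.0232% of all genes tested did. The list was written with earlier results of these data known, so a call within it carries no test of the list. Nnmt, which methylates nicotinamide with SAM, rose from 4.16, 2.63 and 4.04 CPM in LT to 30.4, 50.6 and 46.3 CPM in livers labelled Fpn-LKO (log2 fold change 3.55, SE 0.26, adjusted p = 0.00899 with edgeR's quasi-likelihood fit). Per transcript length, Nnmt had 3.10 to 5.66 TPM in LT and 36.1, 73.6 and 60.1 TPM in livers labelled Fpn-LKO. That was below Gnmt, at 466 to 1089 TPM, in every library. Against Mat2a, at 34.6, 22.5 and 23.1 TPM in LT and 32.2, 36.5 and 35.6 TPM in livers labelled Fpn-LKO, Nnmt was lower in each LT liver and higher in each Fpn-LKO liver. As3mt, an arsenite methyltransferase, did not overlap either and lay lower, at 46.2, 59.3 and 48.7 CPM in LT against 43.4, 46.1 and 38.3 CPM (log2 fold change -0.27, 95% confidence interval -0.58 to 0.040). Of all genes tested, 10.6% did not overlap. The median log2 fold change of the 14 was 0.097. Nnmt lost its call without any 1 LT mouse or without Fpn-LKO replicate 2 (adjusted p = 0.0550 to 0.146 with the same edgeR fit), and its log2 fold change stayed between 3.38 and 3.75 with each mouse left out.

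S-adenosylhomocysteine, the product and inhibitor of methylation, is split by adenosylhomocysteinase, encoded by Ahcy (chromosome 2, 155059310 to 155074497). Ahcy had 1150, 1127 and 1255 CPM in LT livers and 1387, 1379 and 1335 CPM in livers labelled Fpn-LKO. All 3 Fpn-LKO livers lay above all 3 LT livers. Means were 1178 ± 68.3 and 1367 ± 28.0 CPM (SD, n = 3 each), which is a log2 fold change of 0.22 (SE 0.14, 95% confidence interval -0.11 to 0.54, unadjusted p = 0.166 with edgeR's quasi-likelihood fit). The exact two-sided permutation test gave p = 0.1, the smallest possible.

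Ahcy has near-identical copies elsewhere in the genome, and the table lists many reads for them. Gm4737 on chromosome 16 (46152985 to 46155077), annotated as protein-coding, differs from Ahcy at 4 of 1299 coding bases, and Gm9826 on chromosome 1 (7177675 to 7179753), a processed pseudogene, at 11. Runs of up to 575 bases (Gm4737) and 500 bases (Gm9826) are identical to Ahcy, and a read within such a run matches both genes equally well. The 90 coding bases from 1014 to 1103, counted from the A of the start codon in the GENCODE transcripts, hold 2 of these positions. They are shown as a stretch of that length with the most differences from Ahcy over both copies. Capitals mark the bases at which the copies differ from Ahcy.
Ahcy: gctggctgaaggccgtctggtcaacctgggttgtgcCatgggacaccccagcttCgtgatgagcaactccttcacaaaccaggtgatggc
Gm4737: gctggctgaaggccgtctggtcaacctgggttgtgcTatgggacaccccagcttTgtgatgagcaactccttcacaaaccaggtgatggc
Gm9826: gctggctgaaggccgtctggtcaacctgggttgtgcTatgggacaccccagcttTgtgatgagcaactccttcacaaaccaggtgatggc
Both copies carry the same base at each of the 2 positions, so this stretch tells them from Ahcy but not from each other.

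Gm4737 had 803, 777 and 474 CPM in LT livers and 553, 538 and 521 CPM in livers labelled Fpn-LKO, and Gm9826 had 62.3, 57.8 and 45.5 CPM against 51.1, 49.9 and 50.4 CPM. In CPM, LT replicates 1 and 2 were the highest at Gm4737 and the lowest at Ahcy, and LT replicate 3 was the lowest at Gm4737 and the highest LT liver at Ahcy. The copies took between 29.3% and 42.9% of the reads of the 3 genes. Summed over the 3 genes, the values were 2016, 1962 and 1775 CPM in LT livers and 1991, 1967 and 1906 CPM in livers labelled Fpn-LKO, and the groups overlapped. The log2 fold change of the sum was 0.028 (SE 0.15, unadjusted p = 0.860 with edgeR's quasi-likelihood fit), an alternative chosen after seeing the data. The separation of the groups at Ahcy was thus not present in the sum. In TPM the sum was 852 to 1233, above Gnmt in 6 of 6 libraries, where Ahcy alone was below Gnmt in 4.

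**Figure D4:**
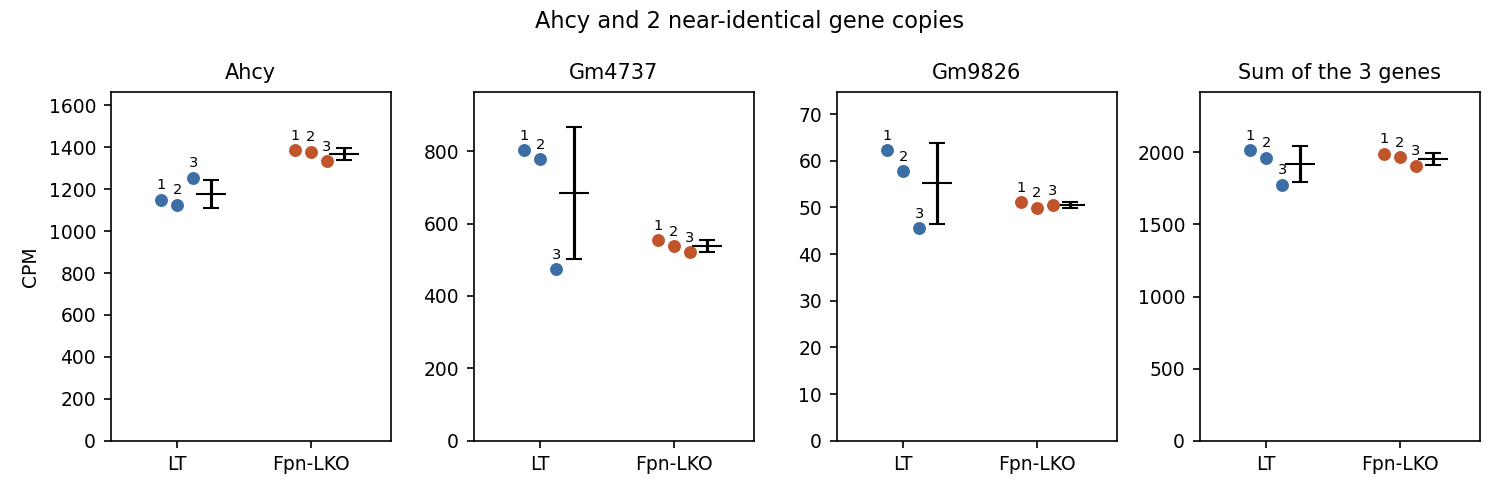
CPM of Ahcy, of its copies Gm4737 and Gm9826, and of the sum of the 3 genes in each liver, on vertical axes from 0. Points are libraries numbered by replicate and bars are the mean and SD of 3 mice. The groups are apart for Ahcy alone and overlap for the sum, where the Fpn-LKO livers lie between 1906 and 1991 CPM and the LT livers between 1775 and 2016 CPM.

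Ahcyl1 and Ahcyl2 encode relatives of adenosylhomocysteinase that are not thought to split S-adenosylhomocysteine. Ahcyl1 had 51.6, 55.6 and 55.3 CPM in LT against 49.8, 65.9 and 42.3 CPM, and Ahcyl2 10.6, 13.5 and 18.4 CPM against 13.5, 17.1 and 17.9 CPM. Both overlapped.

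Homocysteine is methylated back to methionine by 2 routes, with betaine as the donor (BHMT, in liver and kidney) or with methylfolate (methionine synthase, encoded by Mtr). Bhmt (chromosome 13, 93616891 to 93637758) had 2905, 4209 and 3423 CPM in LT livers and 4927, 4002 and 3045 CPM in livers labelled Fpn-LKO, and the groups were interleaved. The log2 fold change was 0.18 (95% confidence interval -0.39 to 0.76). A near-identical copy, Gm5096, aligned to 1869 bases of the Bhmt transcript at 99.4% identity and held between 4.24% and 4.67% of the reads of the pair. Adding them left the log2 fold change at 0.18.

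Bhmt2, which uses S-methylmethionine as its donor, lies 18338 bases from Bhmt on the same strand (93656097 to 93674302). It had 101, 145 and 158 CPM in LT livers and 126, 140 and 106 CPM in livers labelled Fpn-LKO, and was the 1 enzyme gene with a negative log2 fold change (-0.12, 95% confidence interval -0.56 to 0.32). LT replicate 1 was the lowest of the 6 for both Bhmt and Bhmt2. As a share of the Bhmt transcript in TPM, Bhmt2 amounted to 3.45%, 3.42% and 4.58% in LT and 2.54%, 3.47% and 3.44% in livers labelled Fpn-LKO, a difference of -0.28 in mean log2 ratio (exact two-sided permutation test, p = 0.5, adjusted over 2 ratios p = 0.6).

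Mtr, the methionine synthase, was at 10.9, 11.3 and 10.9 CPM in LT livers and 10.6, 11.7 and 10.9 CPM in livers labelled Fpn-LKO, with an interval of the log2 fold change from -0.28 to 0.28. Its TPM of 1.57 to 2.15 compares with 1899 to 2945 for Bhmt. Mtrr, which reactivates methionine synthase, had 8.26, 9.54 and 12.0 CPM against 9.06, 9.62 and 13.6 CPM. Both overlapped. Of 19 folate cycle genes, 1 had an unadjusted p under 0.05 (4.8% of all genes), Mthfd1l, the mitochondrial formyltetrahydrofolate synthetase. It had 2.31, 0.716 and 2.39 CPM in LT livers and 8.13, 2.93 and 4.33 CPM in livers labelled Fpn-LKO, a log2 fold change of 1.505 (SE 0.53, unadjusted p = 0.0236, adjusted p = 0.982 with edgeR's quasi-likelihood fit). The median of the 19 was 0.0034.

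Betaine comes from choline through choline dehydrogenase (Chdh) and betaine aldehyde dehydrogenase (Aldh7a1), and its demethylation leaves dimethylglycine and sarcosine for Dmgdh and Sardh. Chdh had 140, 133 and 92.3 CPM in LT against 127, 112 and 94.3 CPM, Dmgdh 306, 320 and 426 CPM against 376, 343 and 301 CPM, and Sardh 605, 799 and 692 CPM against 678, 647 and 590 CPM. The groups of these 3 overlapped, with negative log2 fold changes of -0.13, -0.045 and -0.13. Aldh7a1 lay higher without overlap, at 294, 277 and 275 CPM in LT livers and 346, 342 and 306 CPM in livers labelled Fpn-LKO (log2 fold change 0.23, 95% confidence interval -0.035 to 0.50). Pcyt2, of phosphatidylethanolamine synthesis, lay lower without overlap, at 199, 243 and 207 CPM against 172, 168 and 185 CPM (log2 fold change -0.31, unadjusted p = 0.0380, adjusted p = 0.982 with edgeR's quasi-likelihood fit). It was the 1 of 17 choline, betaine and glycine genes with an unadjusted p under 0.05, against 4.8% of all genes, and the median of the 17 was -0.0085.

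The 2 transsulfuration genes had the largest fold changes of the 9, with standard errors as wide as that of Mat1a, and neither passed the test. Cbs encodes cystathionine beta-synthase, a heme enzyme that joins homocysteine to serine, and Cth encodes cystathionine gamma-lyase, which releases cysteine. Cbs (chromosome 17, 31612623 to 31637233) had 136, 87.1 and 81.9 CPM in LT livers and 202, 155 and 94.7 CPM in livers labelled Fpn-LKO. Fpn-LKO replicate 3 lay within the LT range and the other 2 above it. Means were 102 ± 29.8 and 151 ± 53.9 CPM (SD, n = 3 each), which is a log2 fold change of 0.57 (SE 0.30, 95% confidence interval -0.14 to 1.27, unadjusted p = 0.0994, adjusted p = 0.982 with edgeR's quasi-likelihood fit).

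Cth (chromosome 3, 157894248 to 157925081) had 287, 172 and 187 CPM in LT livers and 474, 252 and 222 CPM in livers labelled Fpn-LKO. Fpn-LKO replicate 1 stood above every other liver, and the other 2 Fpn-LKO livers lay below LT replicate 1. Means were 215 ± 62.3 and 316 ± 138 CPM (SD, n = 3 each), which is a log2 fold change of 0.55 (SE 0.32, 95% confidence interval -0.20 to 1.31, unadjusted p = 0.127 with edgeR's quasi-likelihood fit). Single livers decided the size of both values. Without Fpn-LKO replicate 1 they were 0.30 for Cbs and 0.14 for Cth, and without LT replicate 1 they were 0.83 and 0.82. Without LT replicate 1 or Fpn-LKO replicate 3, Cbs had an unadjusted p of 0.0353 or 0.0156 (edgeR's quasi-likelihood test), and its adjusted p was at least 0.839 in every alternative.

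Periportal hepatocytes are the cells around the portal vein. The summed level of 8 of their markers had the same order of livers within the Fpn-LKO group as Cbs and Cth. It was 3545, 3376 and 3355 CPM in LT livers and 4786, 4492 and 3131 CPM in livers labelled Fpn-LKO. That order was not particular to periportal markers. The sum of the general hepatocyte markers had it too, at 66072, 60324 and 57073 CPM in Fpn-LKO replicates 1 to 3. Of the 8 periportal markers singly, Hal, Sds, Gls2 and Ass1 had that order, and Cyp2f2, Pck1, Arg1 and Hsd17b13 did not. Of the 8, 3 had an unadjusted p under 0.05 and were higher, which are Sds, Gls2 and Ass1, where 4.8% of all genes had such a p in either direction, and none of the 8 was at 0. Gls2, the liver glutaminase, had 62.7, 45.6 and 59.1 CPM in LT livers and 182, 125 and 65.0 CPM in livers labelled Fpn-LKO. The summed level of 8 pericentral markers was 10853 to 13171 CPM in LT livers and 10662 to 13008 CPM in livers labelled Fpn-LKO. Most of that sum was Cyp2e1, at 8456 to 10856 CPM, so it says little of the other markers. Singly, 0 of the 8 pericentral markers had an unadjusted p under 0.05. Their largest fold change was that of Oat, with overlapping groups (log2 fold change 0.998, unadjusted p = 0.0540 with edgeR's quasi-likelihood fit). The part of these markers in the values of Cbs and Cth was not tested.

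Downstream of cysteine, none of 11 genes tested of cysteine, taurine and glutathione metabolism had an unadjusted p under 0.05, and their median log2 fold change was 0.093. Cdo1, which oxidizes cysteine on the way to taurine, had 646, 721 and 645 CPM in LT livers and 797, 619 and 546 CPM in livers labelled Fpn-LKO. Gclc, the catalytic subunit of the first step of glutathione synthesis, had 192, 160 and 111 CPM against 269, 134 and 168 CPM, and its modifier subunit Gclm 75.3, 79.0 and 90.6 CPM against 82.9, 75.7 and 71.7 CPM. The groups of all 3 overlapped. Slc3a1, a subunit of the cystine carrier of kidney and gut, lay higher without overlap, at 20.8, 42.9 and 62.7 CPM in LT livers and 73.9, 62.8 and 68.7 CPM in livers labelled Fpn-LKO (log2 fold change 0.70, 95% confidence interval -0.10 to 1.502). Slc7a11, the cystine importer, had at most 55 reads in any library and was not tested, nor was Ggt1 with at most 3. The 5 genes listed for making or oxidizing hydrogen sulfide, which CBS and CTH can also make, had positive log2 fold changes with a median of 0.22, and 0 of 5 had an unadjusted p under 0.05.

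Serine is the partner of homocysteine in the CBS reaction. Phgdh, the first enzyme of serine synthesis, had at most 7 reads in any library. Sds, the serine dehydratase that breaks serine down and is also a periportal marker, had 16.9, 25.5 and 32.1 CPM in LT livers and 87.2, 64.3 and 28.2 CPM in livers labelled Fpn-LKO (log2 fold change 1.27, SE 0.41, unadjusted p = 0.0152, adjusted p = 0.982 with edgeR's quasi-likelihood fit). Fpn-LKO replicate 3 lay within the LT range, as it did for Cbs. Psph, of the last step of serine synthesis, and Sdsl, which encodes a relative of serine dehydratase, were both under 6 CPM in every library and higher without overlap, with log2 fold changes of 0.44 (95% confidence interval -0.0019 to 0.89) and 0.39 (-0.051 to 0.84).

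Methionine is also rebuilt by a salvage pathway from the methylthioadenosine that polyamine synthesis leaves. Of 13 genes listed for salvage and for polyamine metabolism, 4 had an unadjusted p under 0.05, 3 higher and 1 lower, against 4.8% of all genes in either direction. The list was written with earlier results of these data known, so this count is a description and carries no test. Mtap, the first enzyme of salvage, had 12.4, 20.9 and 13.8 CPM in LT livers and 22.7, 24.1 and 20.3 CPM in livers labelled Fpn-LKO (log2 fold change 0.51, unadjusted p = 0.0383 with edgeR's quasi-likelihood fit). Mri1, the second, lay lower without overlap, at 10.003, 10.4 and 10.9 CPM against 6.29, 9.06 and 6.03 CPM (log2 fold change -0.55, unadjusted p = 0.0216). Adi1, the dioxygenase near the end of the pathway, which uses iron, lay higher without overlap, at 21.0, 22.2 and 25.1 CPM against 27.8, 37.5 and 29.8 CPM (log2 fold change 0.48, unadjusted p = 0.0121). Odc1, of polyamine synthesis, had 40.9, 56.2 and 61.9 CPM against 60.4, 77.9 and 74.7 CPM (log2 fold change 0.42, unadjusted p = 0.0471). Paox, a polyamine oxidase, did not overlap, at 14.4, 14.4 and 18.3 CPM against 11.7, 13.6 and 13.8 CPM. None of the 13 passed the adjustment over all genes (adjusted p = 0.982 for each of the 4), and their median log2 fold change was 0.16.

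Over all 93 related genes tested of 96 listed, 6 had an unadjusted p under 0.05 and were higher and 2 were lower, and 7 and 4 did not overlap, where 4.8% and 10.6% of all genes met these conditions in either direction. The median log2 fold change was 0.056, with 56 positive and 37 negative. Because the lists were written with earlier results of these data known, these counts are descriptions. Of the genes without overlap in CPM, Pcyt2, As3mt, Aldh7a1, Mri1 and Paox overlapped on the TPM scale. Nnmt, Mthfd1l, Slc3a1, Adi1, Psph and Sdsl did not. None of 9 amino acid carriers had an unadjusted p under 0.05.

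Much of the spread of the enzyme genes lay between livers of the same group. LT replicate 1 was 0.54 above the mean of the 6 livers for Mat1a and 0.38 above it for Gnmt on the log2 scale, and 0.34 below it for both Bhmt and Bhmt2. Fpn-LKO replicate 1 was 0.76 above it for Cbs and 0.92 for Cth. The 2 transsulfuration genes moved together from liver to liver (Pearson r 0.93 over 6 libraries, and 0.89 for deviations from the group means), as did Mat1a and Gnmt (0.89 and 0.95), while Mat1a and Bhmt2 moved in opposite directions (-0.86 and -0.85). These are among the highest and the lowest of 36 pairs over the same 6 libraries, and are descriptions. Mat2a and Ahcy were set side by side because their groups did not overlap, a choice that favours a positive r over the 6 libraries (0.68). For deviations within groups their r was -0.040.

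**Figure D5:**
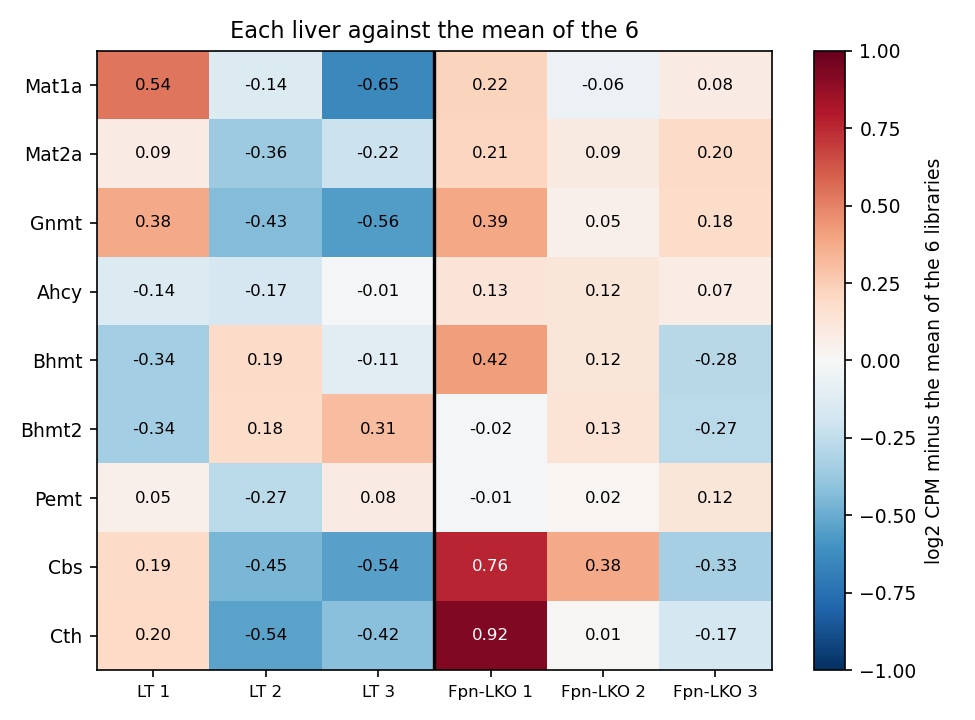
Log2 CPM of each enzyme gene in each liver minus its mean over the 6 livers, with LT to the left of the line and Fpn-LKO to the right. Red is above and blue below the mean. Cbs and Cth are highest in Fpn-LKO replicate 1, at 0.76 and 0.92, and the column of LT replicate 1 differs from those of the other 2 LT livers for most genes.

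Leaving out LT replicate 1 separated the groups for 7 of the 9 genes, 6 of them higher in livers labelled Fpn-LKO and Bhmt2 lower, where 21.3% of all genes then did not overlap. Of all genes, 10.2% then lay higher without overlap. Several of the 9 moved together over the same livers, such as Mat1a with Gnmt and Cbs with Cth, so the 7 are not independent. Leaving out any other single liver separated 2 or 3 of the 9, against 18.8% to 22.4% of all genes. At an unadjusted p under 0.05 with edgeR's quasi-likelihood fit there were then 3 genes without LT replicate 1, which are Mat2a, Gnmt and Cbs, against 4.57% of all genes in that fit. No adjusted p fell below 0.05 for any of the 9 in any of these fits.

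Among the genes whose log2 CPM followed Mat2a most closely over the 6 libraries, of 6878 genes with a mean of at least 10 CPM, were Mbl2 (Pearson r 0.992), AW112010 (0.987), Dph3 (0.981) and Slc27a5 (0.978). Mbl2 encodes a mannose-binding lectin and Slc27a5 the bile acid CoA ligase of hepatocytes. They are among the highest of 6878 values over 6 libraries that share their scaling, and carry no test.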

How the data were processed

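RNA of 6 livers, 3 LT and 3 Fpn-LKO, was sequenced, 1 library to a mouse. According to the submitters' notes, the processing used bcl2fastq 2.20.0, FastQC 0.11.7, HISAT2 2.1.0, Bowtie2 2.3.4.1 and StringTie 2.1.3b with mm10. The authors deposited read counts per gene, unnormalized, together with FPKM and TPM. The strand setting of the counting is not given in the sources used here, nor is how reads with several matching positions were assigned. The labels name an mRNA kit and the methods a total RNA kit.

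The counts were tested in R 4.3.3 with edgeR 4.0.16 (quasi-likelihood test, TMM scaling, Benjamini-Hochberg adjustment, threshold 0.05), after removing genes for which 2 or more libraries had 0 reads. CPM are counts over the TMM-scaled library size, confidence intervals use 95%, and ratios of genes use the deposited TPM. Alternatives were RLE size factors, DESeq2 1.42.0, exactTest, 2 other filters, limma 3.58.1 on log2(TPM + 1) and log2(TPM + 0.1), the deposited FPKM for ratios, the replicate number as a block, each mouse left out, and the reads of near-identical copies added, which was chosen after seeing the data. Copies were sought with BLAST at 90% identity or more over at least 50% of the transcript, for the 9 enzyme genes only. The edgeR fit was also run on simulated counts, with the same spread for every gene and changes of 1 or 2 log2 units. Those changes were larger than that of any of the 9 genes. That run therefore does not show how the fit handles changes of their size. The 9 genes, the lists and the naming rule were chosen with earlier results of these data known. The rule names all 9, list genes at an unadjusted p under 0.05 or without overlap, 14 direct neighbours in the pathway, Slc40a1, and the 5 genes most like a member at an unadjusted p under 0.05. Some genes that this rule names are not reported here. Whether the mice came from separate litters is not given, so p-values measure the spread between these mice, with 1 library each. Overlapping transcripts on the opposite strand at Mat2a (Particl) and Ahcy (Gm45609) had at most 59 and 90 reads.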

Additional observations from a re-analysis of the deposited data

How the results depend on the processing

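No enzyme gene passed the adjusted threshold under any alternative run. Of 135 values of single enzyme genes under an alternative, 132 kept direction and side of the threshold and 3 changed sign, each with 1 LT mouse left out. These were Mat1a (range -0.15 to 0.46 with each mouse left out), Bhmt2 (-0.29 to 0.010) and Pemt (-0.018 to 0.14). All genes past the threshold numbered 4 in the main analysis, 72 with DESeq2, 63 with exactTest, 7 with limma on log2(TPM + 1), 7 on log2(TPM + 0.1), and 0 to 6 with each mouse left out. Enzyme genes at an unadjusted p under 0.05 numbered 1, and 0 with DESeq2, exactTest, no filter, filterByExpr and both limma fits, with 0 to 3 with each mouse left out. Related genes numbered 8, and 3 to 13 with each mouse left out, the lowest without Fpn-LKO replicate 1 and the highest without LT replicate 3 or Fpn-LKO replicate 3. Enzyme genes without overlap numbered 2, 1 on the TPM scale (Ahcy), 1 with near-identical copies added, and 2 to 7 with each mouse left out. The difference in the Mat2a to Mat1a ratio ranged from -0.031 (without LT replicate 1) to 0.41, and that of Bhmt2 to Bhmt from -0.35 to -0.13. The replicate numbers of the labels were carried by different mice. Same-numbered mice deviated together with correlations of 0.13, -0.0095 and 0.045. LT replicate 1 correlated best with Fpn-LKO replicate 1, but not every mouse correlated best with its own number. These correlations cannot show whether same-numbered mice were paired. With the replicate number as a block, 0 of all genes passed (Nnmt had an adjusted p of 0.223 in edgeR), 3 enzyme genes had an unadjusted p under 0.05 (Mat2a, Cbs and Cth) against 4.92% of all genes, and the ratios differed by 0.15 and -0.28 as before (exact p = 0.5 for both). The cause of these differences between settings was not tested.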
